A study of Homo sapiens with 4 samples.

Results

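The 10 human alpha and beta tubulin genes TUBA1A, TUBA1B, TUBA1C, TUBA4A, TUBB, TUBB2A, TUBB2B, TUBB3, TUBB4B and TUBB6 were followed by name, among 62710 genes in the table, 4 of them alpha and 6 beta. The gastric cancer cell lines HGC27 and MKN45 were each exposed for 24 h to 0.3 µM periplocymarin, a cardiac glycoside that blocks the sodium pump Na,K-ATPase, or to 0.1% DMSO as the vehicle. Each of these 4 conditions was a single poly(A) RNA library, so differences within a line have no replicate check. HGC27 is an established line from an undifferentiated gastric cancer and MKN45 one from a poorly differentiated tumour of the stomach. Levels are given in FPKM, reads scaled by gene length and library size, and 24937241 to 36606913 reads per library could be recovered from the values. All 6 epithelial markers were at or above 1 FPKM in both MKN45 libraries (summed 1622 and 2902 FPKM in vehicle and treated) and 0 of 6 in HGC27 (0.699 and 0.444), while 4 of 5 mesenchymal markers were in HGC27 (summed 465 and 447 FPKM) and 0 of 5 in MKN45 (0.456 and 0.487). Of the leukocyte markers only LYZ, at 161 and 125 FPKM in MKN45, reached 1 FPKM, and PTPRC was listed at 0 there; no endothelial marker reached it. Epithelial markers thus reached this level in MKN45 and not in HGC27. The library sizes implied by the deposited values were 1.20 and 0.945 times the recovered totals in vehicle and treated HGC27, and 1.01 and 0.861 times in vehicle and treated MKN45, so treated levels are higher relative to vehicle than with totals alone.

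Microtubules are hollow polymers of alpha and beta tubulin dimers, which form the mitotic spindle and the tracks of intracellular transport. Several genes encode near-identical proteins, called isotypes, of which some are made in most dividing cells and others mainly in neurons or other special cells. Cells adjust tubulin synthesis to the pool of free dimers: when that pool grows, ribosomes making tubulin are recognised by the factor TTC5 through the first residues of the new chain, and the mRNA being translated is degraded. The first 4 codons, which encode the recognised residues, are therefore shown in capitals at the start of each coding sequence (GENCODE 29 transcripts, GRCh38, 30 bases from the ATG).
TUBA1A: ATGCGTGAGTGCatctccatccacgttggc
TUBA1B: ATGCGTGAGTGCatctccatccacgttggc
TUBA1C: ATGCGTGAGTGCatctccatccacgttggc
TUBA4A: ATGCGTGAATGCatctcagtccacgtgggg
TUBB: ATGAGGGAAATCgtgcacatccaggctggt
TUBB2A: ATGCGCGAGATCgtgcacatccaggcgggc
TUBB2B: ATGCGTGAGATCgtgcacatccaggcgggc
TUBB3: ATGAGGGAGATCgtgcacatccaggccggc
TUBB4B: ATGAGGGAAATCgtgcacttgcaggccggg
TUBB6: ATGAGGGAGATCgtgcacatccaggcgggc
The 4 alpha genes held 2 different sequences over the first 12 bases and the same 2 groups over all 30, with TUBA1A, TUBA1B and TUBA1C identical. The 6 beta genes held 4 different sequences over 12 bases and 6 over 30. TUBB and TUBB4B shared one of these 12-base starts, and TUBB3 and TUBB6 another.

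This likeness runs along the coding sequences and bears on every value below. Of the distinct 50-base words in the coding sequence of TUBA1B, 75.7% also occurred in a transcript of another gene, and 46.5% occurred in TUBA1A. For TUBB2A and TUBB2B the shares were 78.7% and 79.9%, mostly with each other (72.6%), and for TUBB 33.5%, with 29.3% found in the pseudogene TUBBP1. TUBB4B shared 12.2%, TUBA4A 8.57% and TUBB6 1.55% of its words. How reads that match several genes were counted is not given in the sources used here, so levels of the near-identical genes are uncertain, and those of TUBB6, TUBA4A and TUBB4B rest more on sequence of their own. TUBB3 shared 95.8% of its words with an overlapping read-through model, which is listed at 0 in all 4 libraries.

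TUBA1B and TUBA1C, the alpha tubulins most used by dividing cells, rose over both lines after periplocymarin. The test was limma on log2(FPKM + 1) over 12374 genes, with the line of each library in the model. Of the 10 tubulin genes, 2 rose, against 3.49% of all genes tested and 11.6% of the 1403 that averaged 30 FPKM or more. None of the 10 fell, against 3.29% of all genes. At an unadjusted p under 0.05, 4 were higher and 0 lower. Of all 12374 genes, 3512 were under 0.05 in either direction. With limma-voom on recovered reads TUBB4B rose too, 3 in all, and 0 fell, against 849 of all genes rising and 663 falling. These totals are the background for the lists below as well. The median fitted log2 fold was 0.53 over the 10 genes and 0.06 over all genes tested, or 0.49 over those at 30 FPKM or more. It was 1.03 over the 4 alpha genes and 0.19 over the 6 beta genes. Of the 10, only TUBA1A, TUBA1B, TUBA1C and TUBB4B averaged 30 FPKM or more. Their fitted log2 folds were 0.87, 1.35, 1.19 and 1.39, and both genes that rose are among them. The medians of 0.53 and 0.49 therefore cover genes of unlike level. The fit treats the lines as the replicates, with 1 residual and 8.59 prior degrees of freedom, so p-values measure the spread between lines and among genes.

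**Figure D1:**
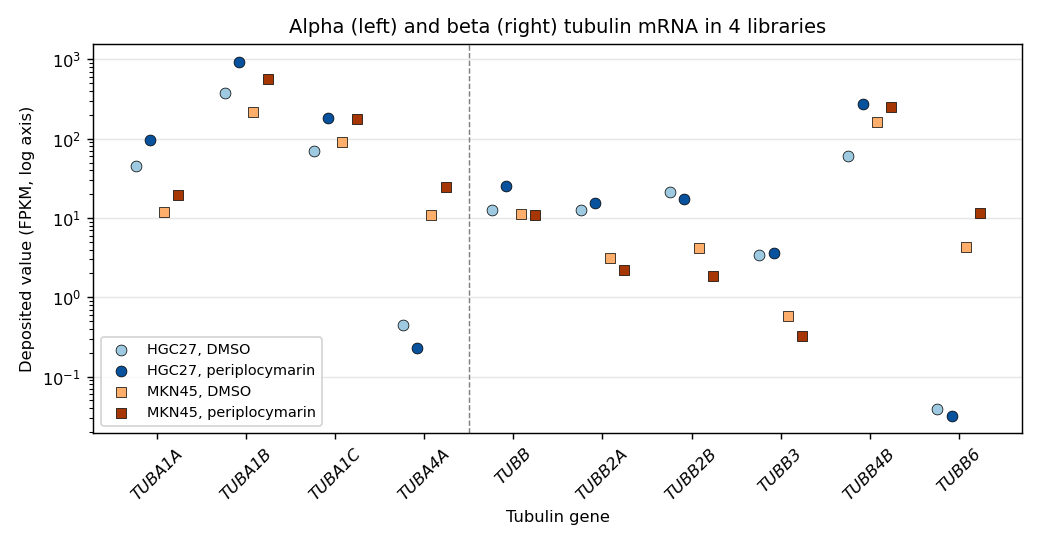
Deposited FPKM (log axis) of the 10 tubulin genes in each of the 4 libraries, alpha genes left and beta genes right of the dashed line, with 1 point per library and no error bars because libraries were not replicated. TUBA1B lies highest in every library, and TUBA4A and TUBB6 lie under 1 FPKM in both HGC27 libraries and above 4 FPKM in both MKN45 libraries.

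TUBA1B (ENSG00000123416, chromosome 12 from 49127782 to 49131397, minus strand) was the most abundant tubulin mRNA in every library. It stood at 373 FPKM in vehicle and 934 FPKM in treated HGC27, and at 214 FPKM in vehicle and 562 FPKM in treated MKN45. Both treated values lay above both vehicle values. The treated level was 2.50 times the vehicle level in HGC27 (95% Clopper-Pearson interval 2.47 to 2.53) and 2.63 times in MKN45 (2.59 to 2.66); these intervals and those below cover counting error only. With library totals alone the ratios were 1.97 in HGC27 and 2.25 in MKN45. The fitted log2 fold was 1.35 ± 0.25 (moderated SE, limma, Benjamini-Hochberg adjusted p = 0.0253). The antisense gene TUBA1B-AS1, which overlaps it, had 44 to 226 reads per library, against 28168 to 78599 for TUBA1B.

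TUBA1C (ENSG00000167553, chromosome 12 from 49188736 to 49274603, plus strand) was the next alpha gene in level. Its level changed from 69.5 to 185 FPKM in HGC27, and in MKN45 from 89.9 to 179 FPKM, so both treated libraries were above both vehicle libraries. The treated level was 2.66 times the vehicle level in HGC27 (2.59 to 2.72) and 1.99 times in MKN45 (1.95 to 2.04). The fitted log2 fold was 1.19 ± 0.27 (limma adjusted p = 0.0372), and with quantile normalization it was 0.75 (adjusted p = 0.0845).

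TUBA1A (ENSG00000167552, chromosome 12 from 49184796 to 49189324, minus strand), the main alpha isotype of developing neurons, did not pass the test. It was at 44.8 and 95.4 FPKM in vehicle and treated HGC27 and at 11.8 and 19.3 FPKM in MKN45. Treated exceeded vehicle in each line, by 2.13 times in HGC27 (2.06 to 2.20) and 1.63 times in MKN45 (1.53 to 1.75), and all HGC27 values lay above all MKN45 values. The fitted log2 fold was 0.87 ± 0.28 (limma adjusted p = 0.0836), and with a floor of 10 FPKM, where 23.6% of all genes rose, it was past the threshold (adjusted p = 0.0234). Its gene model and that of TUBA1C overlap on opposite strands, and with no strand setting given their shared bases cannot be assigned.

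TUBA4A (ENSG00000127824, chromosome 2 from 219249711 to 219278170, minus strand) was found at an appreciable level in 1 line. It stood at 0.444 and 0.230 FPKM in vehicle and treated HGC27, from 53 and 20 reads, and at 11.0 and 24.3 FPKM in MKN45. The lines did not overlap. In MKN45 the treated level was 2.21 times the vehicle level (2.06 to 2.36), and in HGC27 it was 0.517 times (0.293 to 0.879). Over both lines the gene did not pass (fitted log2 fold 0.42 ± 0.36, limma adjusted p = 0.463).

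The 6 beta genes did not move as 1 group, and none passed the test. TUBB4B (ENSG00000188229, chromosome 9 from 137241213 to 137243707, plus strand), a beta isotype of most dividing and ciliated cells, came nearest. It stood at 60.2 and 274 FPKM in vehicle and treated HGC27, a ratio of 4.55 (4.39 to 4.71), and at 162 and 247 FPKM in MKN45, a ratio of 1.52 (1.48 to 1.56). Both treated values were above both vehicle values, and the vehicle levels were further apart than the treated ones. The fitted log2 fold was 1.39 ± 0.36 (limma adjusted p = 0.0511). It was past the threshold in 5 of the alternative settings: library totals alone (adjusted p = 0.0240), totals without mitochondrial genes (0.0444), a pseudocount of 0.1 (0.0286), a floor of 10 FPKM (0.000631) and limma-voom (0.0268). Over all genes 371, 290, 755, 1049 (of 4454) and 849 rose in these settings, against 432 in the reported fit. TUBB4B did not pass with quantile normalization (limma adjusted p = 0.0780), no filter (0.361), pseudogenes added (0.0511) or without cell line in the model (0.830).

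TUBB (ENSG00000196230, chromosome 6 from 30720201 to 30725426, plus strand), the beta isotype of class I found in nearly all cells, was at 12.7 and 25.5 FPKM in vehicle and treated HGC27 and at 11.3 and 10.8 FPKM in MKN45. Treated HGC27 stood apart and the other 3 libraries lay close together. The treated level was 2.004 times the vehicle level in HGC27 (1.88 to 2.13) and 0.954 times in MKN45 (0.883 to 1.03), the latter within counting error of no difference, and the gene did not pass (fitted log2 fold 0.44 ± 0.32, limma adjusted p = 0.390). The processed pseudogene TUBBP1 was listed higher than TUBB in every library, at 51.1 and 91.0 FPKM in HGC27 and 60.7 and 63.2 FPKM in MKN45. In reads, TUBBP1 had 1.63, 1.44, 2.17 and 2.37 times those of TUBB in vehicle and treated HGC27 and vehicle and treated MKN45. By FPKM the order of the libraries was not the same for both, since treated MKN45 was lowest for TUBB and vehicle HGC27 for TUBBP1. The fitted log2 fold was 0.44 for both. TUBB2BP1, a pseudogene of TUBB2B, was at 7.76 and 9.21 FPKM in HGC27 and under 1 FPKM in MKN45, and TUBA3FP, TUBAP2 and TUBBP2 did not exceed 1.99 FPKM in any library.

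TUBB2A (ENSG00000137267, chromosome 6 from 3153669 to 3157526, minus strand) and TUBB2B (ENSG00000137285, chromosome 6 from 3224261 to 3231730, minus strand) are neighbouring copies that are strongly used in neurons. TUBB2A was at 12.7 and 15.3 FPKM in vehicle and treated HGC27 and at 3.15 and 2.19 FPKM in MKN45. TUBB2B was at 21.0 and 17.3 FPKM in HGC27, against 4.23 and 1.84 FPKM in MKN45. For both genes every HGC27 value lay above every MKN45 value. TUBB2B was 1.21-fold lower in treated HGC27 (1.14 to 1.29) and 2.29-fold lower in treated MKN45 (1.94 to 2.71), and TUBB2A was 1.43-fold lower in treated MKN45 (1.18 to 1.75). Neither passed the limma test, at a fitted log2 fold of -0.06 ± 0.30 (TUBB2A, adjusted p = 0.916) and -0.57 ± 0.30 (TUBB2B, adjusted p = 0.238), and limma-voom turned the sign of TUBB2A (0.03). The 1.21-fold higher level of TUBB2A in treated HGC27 (1.11 to 1.32) turned to a log2 difference of -0.07 with library totals alone and with quantile normalization.

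TUBB3 (ENSG00000258947, chromosome 16 from 89921392 to 89938761, plus strand), the beta isotype used as a neuronal marker, was low throughout. It was at 3.45 and 3.58 FPKM in vehicle and treated HGC27 and at 0.581 and 0.322 FPKM in MKN45, the latter from 159 and 57 reads. The HGC27 values lay within counting error of each other (ratio 1.04, 0.933 to 1.15), and treated MKN45 was 1.80-fold below its vehicle (1.33 to 2.49). Over both lines it did not pass (fitted log2 fold -0.11 ± 0.31, limma adjusted p = 0.846), and quantile normalization turned the sign (0.15). Among 5 neuronal markers only SYT1 reached 1 FPKM in HGC27, at 2.21 and 2.997 FPKM, ELAVL3 and ELAVL4 were listed at 0 in all libraries, and none reached 1 FPKM in MKN45.

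TUBB6 (ENSG00000176014, chromosome 18 from 12307669 to 12344320, plus strand), a divergent beta isotype of class V, was nearly absent from HGC27, with 5 and 3 reads, or 0.0393 and 0.0323 FPKM, in vehicle and treated cells. In MKN45 it was at 4.33 and 11.5 FPKM. The treated level there was 2.65 times the vehicle level (2.40 to 2.92), while in HGC27 the ratio of 0.822 had a counting interval from 0.128 to 4.22. Over both lines it did not pass (fitted log2 fold 0.61 ± 0.36, limma adjusted p = 0.297).

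**Figure D2:**
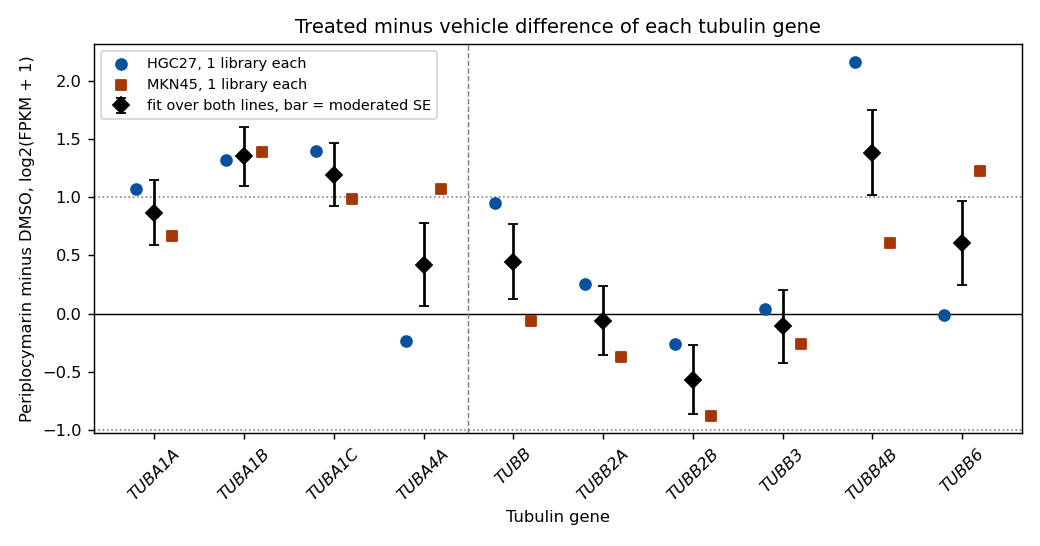
Treated minus vehicle difference of log2(FPKM + 1) for each tubulin gene in HGC27 (circles) and MKN45 (squares), 1 library each, with the fit over both lines (diamonds, bars are moderated standard errors); dotted lines mark a difference of 1. The lines lie close together for TUBA1B and farthest apart for TUBB4B, where HGC27 is at 2.17 and MKN45 at 0.60.

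Within a line, genes that averaged 1 FPKM or more over its libraries were measured, and a gene was called at a difference of at least 1 on the log2(FPKM + 1) scale. In HGC27, 4 of the 8 measured tubulin genes were at least 2-fold higher after treatment, namely TUBA1A, TUBA1B, TUBA1C and TUBB4B, against 9.72% of 11821 measured genes. None was at least 2-fold lower, against 10.4%, and TUBB lay just under the threshold at 0.95. The count of 4 became 2 with library totals alone (TUBA1C and TUBB4B) and 1 with quantile normalization (TUBB4B). TUBA1B was just under the threshold in these settings, at 0.98 and 0.99. In MKN45, 3 of the 9 measured genes were at least 2-fold higher, namely TUBA1B, TUBA4A and TUBB6, against 8.21% of 11895 genes. None was lower by 1 or more on that scale, against 8.94%, although TUBB2B was 2.29-fold lower in FPKM, since the added 1 lessens the difference of low genes (-0.88). TUBA1C lay just under the threshold at 0.99. The count of 3 became 1 with totals that leave out mitochondrial genes. With library totals alone TUBB2B was at -1.02 in MKN45, past the threshold for lower, and with a pseudocount of 0.1 it was past it too. The median difference was 1.01 over the 8 genes in HGC27 and 0.66 over the 9 in MKN45, against 0.11 and 0.07 over all measured genes. Library totals alone moved the median fitted log2 fold over all genes tested from 0.06 to -0.16.

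Level matters for these shares, because genes between 10 and 300 FPKM tended to be higher after treatment in both lines. Among 77 genes at 300 FPKM or more in HGC27 the median difference was 0.36, and 3 exceeded the 1.32 of TUBA1B. Among the 81 such genes in MKN45 the median was -0.07, and 1 exceeded the 1.39 of TUBA1B. Between 100 and 300 FPKM, 2 of 217 genes in HGC27 exceeded TUBB4B and 17 exceeded TUBA1C, at a median of 0.57. In MKN45 the numbers were 79 and 35 of 253 genes, at a median of 0.32, so that TUBB4B lay nearer the middle of its level range there. TUBA1A was exceeded by 245 of 1049 genes between 30 and 100 FPKM in HGC27, and by 835 of 2883 between 10 and 30 FPKM in MKN45. TUBB2B had a smaller difference than most genes of its level in each line: 2407 of 2838 genes exceeded it in HGC27 and 3814 of 4332 in MKN45.

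**Figure D3:**
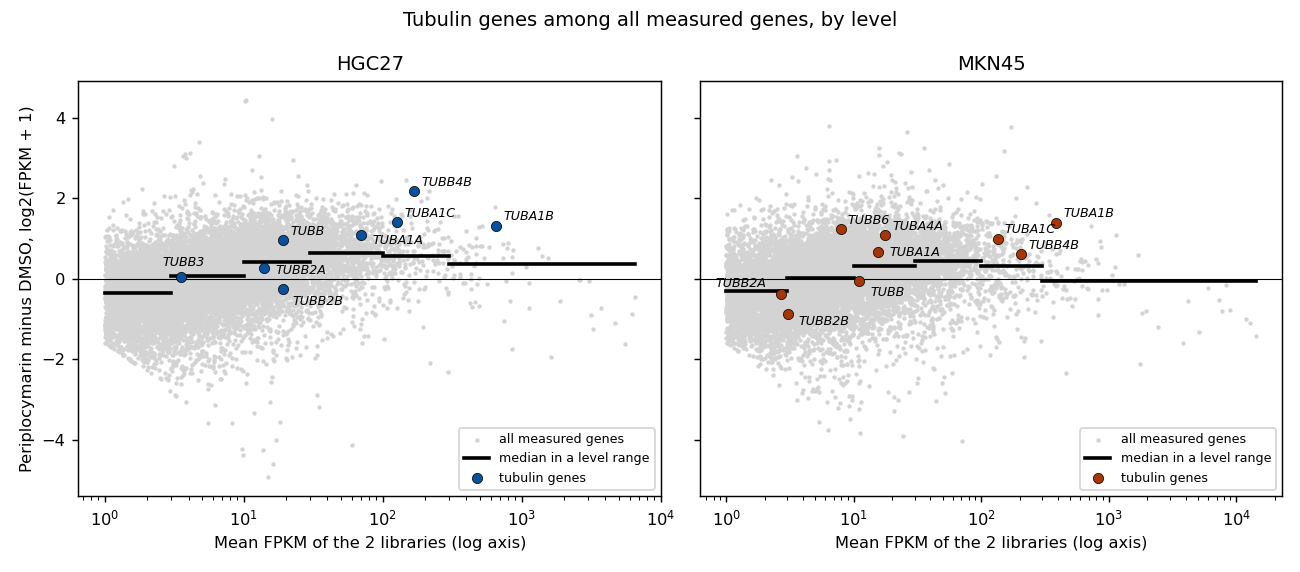
Treated minus vehicle difference of log2(FPKM + 1) against the mean FPKM (log axis) of the 2 libraries of each line, for all measured genes (grey), the median in each of 6 level ranges (black bars) and the measured tubulin genes (coloured, named). TUBA1B lies at 1.32 in HGC27 and 1.39 in MKN45, above the medians of 0.36 and -0.07 for genes at 300 FPKM or more.

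The makeup of tubulin mRNA by isotype differed between lines more in beta than in alpha genes. FPKM is per length, but the lengths recovered with the reads ran from 2037 bases for TUBB4B to 7421 for TUBB3. Their coding sequences have 1335 and 1350 bases. Shares of FPKM thus depend on the gene models, and shares of reads for TUBA1B and TUBB4B are given in the closing section. TUBA1B made up 76.5% and 76.9% of summed alpha FPKM in vehicle and treated HGC27, and 65.5% and 71.6% in MKN45. TUBA1C made up 14.2% and 15.2% in HGC27, and in MKN45 27.5% and 22.8%. The alpha sum went from 488 to 1214 FPKM in HGC27, and in MKN45 from 327 to 784 FPKM, ratios of 2.49 and 2.40. TUBA1B was thus the main alpha mRNA before and after treatment in both lines.

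The beta makeup shifted most in HGC27. There TUBB4B made up 54.7% of summed beta FPKM in the vehicle and 81.6% in the treated library, and TUBB2B 19.0% and 5.16%. TUBB2A went from 11.5% to 4.57% and TUBB from 11.5% to 7.58%. In MKN45, where TUBB4B was already at 87.3%, it was at 90.3% after treatment, while TUBB6 went from 2.33% to 4.19%. The beta sum went from 110.1 to 336 FPKM in HGC27, a ratio of 3.05, and from 186 to 274 FPKM in MKN45, a ratio of 1.47. When pseudogene values were added to the isotype of the same name, the share of TUBB4B was 35.5% and 62.6% in HGC27 and 65.6% and 73.1% in MKN45. It was higher in the treated library of each line with and without them.

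**Figure D4:**
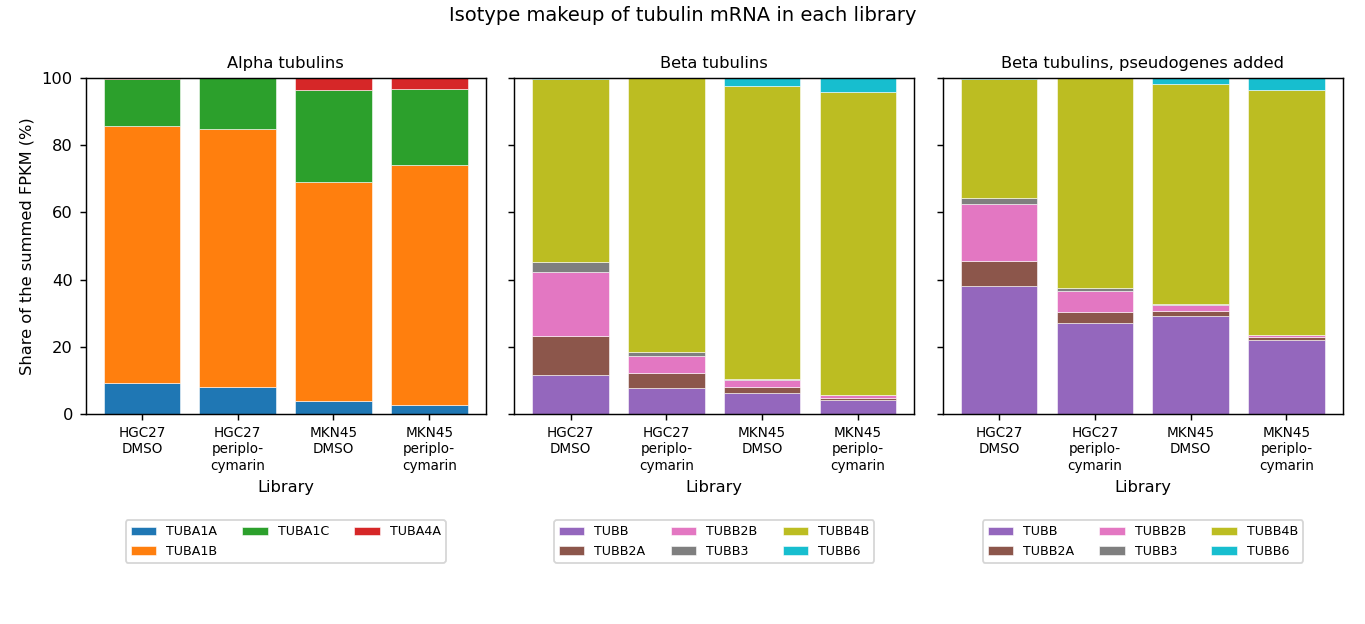
Share of each isotype in the summed alpha or beta FPKM (%) of each library, 1 bar per library, without replicates; the right panel adds pseudogene values to the beta isotype of the same name. TUBB4B widens from 54.7% to 81.6% of beta FPKM in HGC27 and lies at 87.3% and 90.3% in MKN45.

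Alpha and beta mRNA were not listed at equal levels. The alpha sum was 4.43 and 3.62 times the beta sum in vehicle and treated HGC27, and 1.76 and 2.87 times in MKN45. With pseudogenes added the ratios were 2.88, 2.78, 1.32 and 2.32 in the same order. These ratios depend on the gene lengths as well. All 10 genes together made up 0.251% and 0.583% of the summed FPKM of HGC27, and 0.153% and 0.344% of that of MKN45. Mitochondrially encoded genes, among the highest in the table, had a lower share of reads after treatment, 6.89% and 3.38% in HGC27 and 11.1% and 5.11% in MKN45, and their part in these shares was not tested.

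The vehicle libraries show which isotypes each line used before treatment. In vehicle HGC27, 4 of the 10 genes were at least 2-fold higher than in vehicle MKN45, against 14.3% of 13031 measured genes, and 3 were at least 2-fold lower, against 17.4%. Those higher were TUBB3 by 5.94-fold (counting interval 5.01 to 7.09), TUBB2B by 4.96-fold (4.55 to 5.41), TUBB2A by 4.03-fold (3.57 to 4.57) and TUBA1A by 3.79-fold (3.59 to 4.004). Those lower were TUBB6 by 110.1-fold (46.9 to 340.3), TUBA4A by 24.8-fold (18.8 to 33.2) and TUBB4B by 2.69-fold (2.60 to 2.79). The 4 higher in HGC27 include the isotypes best known from neurons. TUBB6 and TUBA4A averaged 1 FPKM or more in this comparison only through MKN45, and TUBB3 only through HGC27, so the direction of these 3 is fixed by the filter. Each line being 1 library per treatment, no test was made.

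By level, TUBA1B, TUBA1C and TUBA1A followed each other in both HGC27 libraries and in vehicle MKN45. In vehicle MKN45 TUBA1A and TUBA4A were close, at 11.8 and 11.0 FPKM, and in treated MKN45 TUBA4A was above TUBA1A. TUBB4B was the highest beta gene in each library by deposited FPKM. With pseudogene values added, TUBB was above it in vehicle HGC27, at 38.0% of summed beta FPKM against 35.5%. TUBB and TUBB2A were level in vehicle HGC27 at 12.7 FPKM each, as were TUBB6 and TUBB2B in vehicle MKN45 at 4.33 and 4.23 FPKM, and TUBB6 and TUBB in treated MKN45 at 11.5 and 10.8 FPKM.

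Genes with a profile over the 4 libraries most like that of TUBA1B, by Euclidean distance of centred log2(FPKM + 1) among 3184 genes that averaged 10 FPKM or more in both lines, were KIF4A (distance 0.047), the pseudogene NPM1P27 (0.16) and ZNF367 (0.17). KIF4A, a chromosome-bound kinesin motor, was at 23.9, 61.6, 13.2 and 37.7 FPKM in vehicle and treated HGC27 and vehicle and treated MKN45. For TUBB4B they were the histone variant gene H2AX (0.25), ATP6V1C1 (0.29) and CALM3 (0.32). H2AX was at 23.3, 87.3, 59.5 and 97.7 FPKM in the same order. The distances rest on 4 libraries and are a description.

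Promoters are shown for TUBA1B and TUBA1C, which rose, and for TUBB4B, which came nearest to the threshold, from 250 bases before to 50 after the annotated start (RefSeq, GRCh38.p14, gene strand). For TUBA1C the annotated start closest to the coding sequence is used. Capitals mark CCAAT on either strand, the box bound by NF-Y, and TTTGAA on either strand, the core of the cell cycle homology region of many mitotic genes. The windows are chr12:49131346-49131645 (minus strand), chr12:49264832-49265131 (plus) and chr9:137241037-137241336 (plus).
TUBA1B: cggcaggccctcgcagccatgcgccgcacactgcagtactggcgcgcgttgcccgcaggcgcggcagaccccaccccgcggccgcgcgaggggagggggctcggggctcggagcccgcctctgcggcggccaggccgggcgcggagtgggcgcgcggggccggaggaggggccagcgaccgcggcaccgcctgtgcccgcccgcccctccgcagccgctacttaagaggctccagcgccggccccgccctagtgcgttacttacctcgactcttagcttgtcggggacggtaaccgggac
TUBA1C: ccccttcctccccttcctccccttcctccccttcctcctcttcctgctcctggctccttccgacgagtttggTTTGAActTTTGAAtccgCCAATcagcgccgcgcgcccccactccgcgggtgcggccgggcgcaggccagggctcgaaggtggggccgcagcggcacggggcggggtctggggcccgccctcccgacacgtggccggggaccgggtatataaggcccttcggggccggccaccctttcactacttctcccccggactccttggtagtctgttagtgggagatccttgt
TUBB4B: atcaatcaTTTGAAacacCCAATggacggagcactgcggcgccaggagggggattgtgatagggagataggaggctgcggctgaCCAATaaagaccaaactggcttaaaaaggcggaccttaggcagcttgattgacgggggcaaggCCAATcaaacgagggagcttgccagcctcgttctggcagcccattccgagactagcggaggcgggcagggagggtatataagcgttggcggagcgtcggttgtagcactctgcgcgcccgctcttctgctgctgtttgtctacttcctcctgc
TUBA1C held 1 CCAAT and 2 TTTGAA, TUBB4B held 3 CCAAT and 1 TTTGAA, and TUBA1B held neither word in this window. Over the 15 annotated windows of the 10 genes, 9 held CCAAT and 4 held TTTGAA, against 34.6% and 15.2% of 35116 RefSeq windows of the same length. All annotated windows of TUBA1C held both words, and overlapping ones hold the same CCAAT, so window counts include that site more than once. Counted by gene, with any of its windows, 7 of the 10 held CCAAT and 2 held TTTGAA, TUBA1C and TUBB4B, against 39.7% and 18.2% of 27305 genes. The GC box GGGCGG, searched on both strands, was in 8 of the 10 genes, against 48.3% of genes. Such matches describe the letters of the window and show no binding.

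The other tubulins of the superfamily were mostly low, with 4 of 12 passing the level filter, at a median fitted log2 fold of -0.36. None of the 4 was past the threshold (limma), against 3.49% of all genes tested rising and 3.29% falling. At an unadjusted p under 0.05, 1 was higher and 2 lower, and with limma-voom 1 fell. Gamma tubulin TUBG1, which nucleates microtubules, was at 18.6 and 23.0 FPKM in vehicle and treated HGC27 and at 15.6 and 18.7 FPKM in MKN45 (fitted log2 fold 0.27 ± 0.28, limma adjusted p = 0.549). TUBE1, the epsilon tubulin of centrioles, was at 12.6 and 5.69 FPKM in HGC27, against 9.43 and 3.72 FPKM in MKN45 (-1.09 ± 0.28, adjusted p = 0.0508). With library totals alone it was past the threshold, where 2 of the 4 fell, against 1188 of all 12374 genes. Both treated values of TUBE1 lay under both vehicle values. TUBB4A, a beta isotype of oligodendrocytes, did not pass the level filter, at 2.53 and 0.343 FPKM in vehicle and treated HGC27. Of the 11 genes of the gamma-tubulin ring complex, the nucleation template, 1 rose and 0 fell, against 3.49% and 3.29% of all genes tested (median log2 fold 0.23; unadjusted p under 0.05: 2 higher and 0 lower; limma-voom: 1 rose and 0 fell). This was TUBGCP4, which went from 3.85 to 15.0 FPKM in HGC27, and in MKN45 from 7.41 to 19.4 FPKM, a fitted log2 fold of 1.502 ± 0.29 (adjusted p = 0.0254).

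New tubulin chains are handed by the prefoldin complex to the chaperonin CCT and then assembled into dimers by cofactors. Of 15 folding cofactors and prefoldin genes, 4 rose and 0 fell, against 3.49% of all genes tested rising and 11.6% of those at 30 FPKM or more (limma; unadjusted p under 0.05: 5 higher and 1 lower; limma-voom: 4 rose and 0 fell), and the list's median was 0.53. All 4 were prefoldin subunits. PFDN2 went from 71.2 to 177 FPKM in HGC27, and in MKN45 from 57.1 to 144 FPKM (1.31 ± 0.26, adjusted p = 0.0283). PFDN5, VBP1 and PFDN4 rose by 1.38 ± 0.31, 1.28 ± 0.27 and 1.14 ± 0.28. PFDN5 and PFDN4 averaged 26.7 and 21.9 FPKM, so they are not among the genes at 30 FPKM or more. With quantile normalization none of the 15 was past the threshold. With library totals alone 3 rose and TBCC, a cofactor of dimer assembly, fell, against 371 rising and 1188 falling of all 12374 genes. Of the 8 CCT subunits none rose or fell (limma), against 3.49% and 3.29% of all genes tested. At an unadjusted p under 0.05, 1 was higher and 0 lower, and limma-voom called 0. Their median was 0.43, which quantile normalization turned to -0.02. CCT5, the highest by its mean over the 4 libraries though not in either HGC27 library, was at 103 and 158 FPKM in HGC27, against 180.0 and 258 FPKM in MKN45.

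The 14 genes of tubulin mRNA autoregulation comprise TTC5, SCAPER, CCR4-NOT deadenylase subunits and the ribosome-bound NACA and BTF3. None passed the limma test in either direction, against 3.49% of all genes tested rising and 3.29% falling, and limma-voom called 0. At an unadjusted p under 0.05 (limma), 4 were higher and 0 lower, against 3512 of all 12374 genes in either direction. The median of the list was 0.35. With a floor of 10 FPKM 2 of 8 rose, the deadenylase subunits CNOT1 and CNOT8, against 23.6% of all genes at that floor. TTC5 itself was at 2.08 and 2.24 FPKM in vehicle and treated HGC27 and at 3.35 and 3.55 FPKM in MKN45 (0.07 ± 0.29, adjusted p = 0.900). Its treated and vehicle levels were thus closer within a line than between lines. BTF3, the gene of this list with the highest level, was at 77.5 and 138 FPKM in HGC27, against 60.2 and 86.1 FPKM in MKN45.

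Of 12 tested enzymes that modify tubulin, 2 fell and none rose, against 3.29% and 3.49% of all genes tested (limma; unadjusted p under 0.05: 0 higher and 2 lower; limma-voom: 2 fell), with a median of -0.12. TTLL1, a subunit of a tubulin polyglutamylase, was at 2.52 and 0.0909 FPKM in vehicle and treated HGC27, at 1.90 FPKM in vehicle MKN45, and listed at 0 in treated MKN45 (-1.61 ± 0.33, adjusted p = 0.0283). It averaged 1.13 FPKM and so passed the level filter of 1 FPKM only through its vehicle libraries, which fixes the direction of its call. AGBL5, a deglutamylase that removes such side chains, went from 8.61 to 2.93 FPKM in HGC27, and in MKN45 from 7.62 to 2.71 FPKM (-1.25 ± 0.29, adjusted p = 0.0372). Both also fell under quantile normalization, with library totals alone and with limma-voom, where 377, 1188 and 663 of all genes fell.

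Of 26 tested proteins that bind microtubules or set their dynamics, 2 rose and none fell, near the 3.49% and 3.29% of all genes tested (limma; unadjusted p under 0.05: 5 higher and 1 lower; limma-voom: 4 rose and 1 fell), with a median of 0.04. MAPRE1, the plus-end tracking protein EB1, went from 46.6 to 121 FPKM in HGC27, and in MKN45 from 49.3 to 119 FPKM (1.31 ± 0.27, adjusted p = 0.0287). MAP7D1, a microtubule-associated protein, went from 17.3 to 45.8 FPKM and from 5.05 to 10.4 FPKM (1.13 ± 0.29, adjusted p = 0.0476). STMN1, which binds free tubulin dimers, was at 34.6 and 96.1 FPKM in HGC27, against 19.8 and 32.5 FPKM in MKN45, and did not pass (1.07 ± 0.30, adjusted p = 0.0589). With quantile normalization neither MAPRE1 nor MAP7D1 passed.

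**Figure D5:**
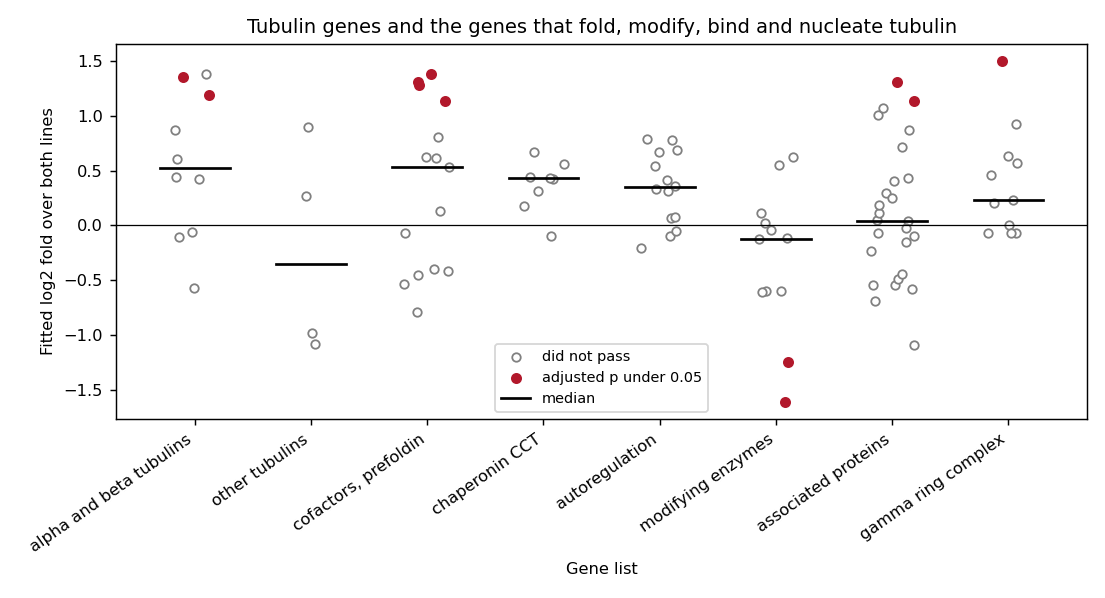
Fitted log2 fold over both lines of every tested gene in 8 lists around tubulin, 1 point per gene, filled where the limma adjusted p was under 0.05, with each list's median as a black bar. The filled points are 2 tubulin genes, 4 prefoldin subunits, 2 modifying enzymes (below 0), 2 microtubule-associated proteins and 1 ring complex gene.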

How the data were processed

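The members and gene lists were chosen with earlier results of these data known. The authors deposited 1 table of 62710 Ensembl genes by 4 libraries, and from its values these are FPKM scaled by gene length and library size before deposit, since the file header names no unit. Tools named by the submitters' processing notes are HISAT2 2.1.0 and fastp 2.0, with build hg38. The sources used here name no counter, annotation or strand setting. Whole reads were recovered from the steps between low values (tolerance 0.0001 reads) for 25903 of 25904 genes above 0 in at least 2 libraries. GENCODE 29 lengths were used or, where these gave no whole reads, the nearest length that did. Of 30457 genes above 0 with a GENCODE 29 length, 15204 (49.9%) gave whole reads at that length. The recovered reads served for counting intervals and alternatives. Symbols were matched for 62706 genes.

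Genes averaging at least 1 FPKM and 10 recovered reads were fitted with limma 3.58.1 (R 4.3.3) on log2(FPKM + 1), trend in eBayes, with cell line as a block because both libraries of a pair are the same line, and a Benjamini-Hochberg adjusted p under 0.05. limma-voom used library sizes implied by the deposited values. The alternatives are given in the closing section. The read recovery and the fit were tested on simulated data. The simulated fit gave each changed gene the same fold in both lines, so it does not cover genes on which the lines differ. The recovery test held no gene with as few reads as TUBB6 in HGC27. Named were the 10 tubulin genes, related pseudogenes and antisense models reaching 1 FPKM, TTC5, STMN1 and TUBG1, the genes of each other list past the threshold (up to 4) or else its most abundant gene, and the 3 nearest profiles of the most abundant alpha and beta gene. CNOT1, CNOT8, TUBE1, TUBB4A and TBCC were named after their values were seen.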

Additional observations from a re-analysis of the deposited data

Results flagged for a closer look

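Among the tubulin genes that averaged 1 FPKM or more in each line, TUBB and TUBB2A differed in direction between the lines, which is why they are listed here. TUBA4A, TUBB3 and TUBB6 differed in sign too, but averaged under 1 FPKM in 1 of the lines. TUBB had a treated minus vehicle difference of 0.95 on the log2(FPKM + 1) scale in HGC27 and of -0.0619 in MKN45. TUBB2A had a difference of 0.26 in HGC27 and of -0.38 in MKN45. With 1 library per condition the difference between lines was not tested. The MKN45 value of TUBB lay within counting error of no change (ratio 0.954, 0.883 to 1.03), and the HGC27 value of TUBB2A turned sign with library totals alone (-0.07).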

How the results depend on the processing

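The count of tubulin genes that rose over both lines, 2 in the reported fit, was 1 with quantile normalization, 0 with no filter on low values, 4 with a floor of 10 FPKM, where 23.6% of all genes rose, and 0 with no replicate block, that is without cell line in the model. Both settings that gave 0 called no gene of the table (limma), against 4306 genes at an unadjusted p under 0.05 with no filter and 695 without the block. The number at least 2-fold higher in treated HGC27, 4, was 1 with quantile normalization and 2 with either library total. The number higher in treated MKN45, 3, was 1 with totals that leave out mitochondrial genes, and the number lower there, 0, was 1 with either library total and with a pseudocount of 0.1. Between vehicle lines, a floor of 10 FPKM left 2 higher and 1 lower gene. Over both lines TUBB3 changed sign with quantile normalization (0.15) and TUBB2A with limma-voom (0.026); neither passed the test under any setting. Of 86 values of single genes under the alternatives, 73 kept direction and side of the threshold, 5 lost the call, 6 gained one and 2 changed sign. Many of these outcomes could not differ. The fitted log2 fold is the same with no filter, a floor of 10 FPKM or no block, and no filter and no block called no gene. Pseudogenes changed the levels of TUBB, TUBB2B and TUBB3 alone. The 73 of 86 thus overstates how much was checked. As shares of recovered reads, TUBA1B was at 73.4%, 73.7%, 61.1% and 67.6% of alpha, and TUBB4B at 37.8%, 69.3%, 77.8% and 82.7% of beta, in vehicle and treated HGC27 and vehicle and treated MKN45; with pseudogenes added TUBB4B was at 35.5%, 62.6%, 65.6% and 73.1%. Over all genes, 51.5% of calls were upward, against 23.8% with library totals alone, 17.8% without mitochondrial genes, 37.3% with quantile normalization and 84.1% at a floor of 10 FPKM. Adding pseudogenes to the isotype of the same name, chosen after seeing the data, changed no call of a tubulin gene. It left the levels of TUBA1B, TUBA1C and TUBB4B as they were, so it is no check on them. Leaving out a line leaves no residual degree of freedom; the values of each line stand above. Fewer than 10 reads lie behind each HGC27 value of TUBB6.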
